A study of Homo sapiens with 10 samples.

Results

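WA-68 is a degrader of the PROTAC type directed at BRD9, and the data described here compare HS-SY-II cells kept with 100 nM WA-68 for 48 h with cells given the DMSO vehicle. HS-SY-II is an established human synovial sarcoma cell line. The comparison takes the 4 libraries whose labels name 48 h or DMSO, of 10 in the series. All genes with enough counts were examined, 16382 of 63140 gene identifiers. Each group held 2 biological replicates of 1 cell line in the same serum-containing medium, and the other 6 libraries came from cells kept with WA-68 for 12, 24 or 96 h. These 6 libraries entered the fit, where they took part in the filter on low counts, the scaling and the estimate of the spread between replicates. A second comparison sets 48 h against 24 h, and changes from DMSO at the other times are given in places. When the DMSO cultures were harvested is not stated, so time in culture and time with WA-68 cannot be told apart in a comparison with DMSO.

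BRD9 is a bromodomain protein of the non-canonical BAF complex, one of the assemblies that move nucleosomes by using ATP. In synovial sarcoma a chromosome translocation joins SS18, a subunit of BAF complexes, to an SSX protein, and the tumour cells are known to depend on BRD9. A PROTAC binds its target and an E3 ubiquitin ligase at once, so that the target is marked for the proteasome. The protein is removed by this route, not the transcript, and protein levels were not analysed here.

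Assigned counts came to 8680831 and 7982460 in replicates 1 and 2 of 48 h, against 13200051 and 8830910 in DMSO. All levels below are CPM, read counts divided by the scaled library size, with replicate 1 before replicate 2, and changes as log2 fold changes of 48 h over DMSO with their standard error (SE) from edgeR. Called genes are those whose p in edgeR's quasi-likelihood test, adjusted by Benjamini-Hochberg over all 16382 genes, fell below 0.05. In bulk RNA fewer cells with a transcript and less of it per cell cannot be told apart. Replicate 2 of DMSO stood apart from replicate 1: the log2 difference between these libraries followed the GC content of the transcripts (Spearman correlation between replicate 2 over replicate 1 and GC content across 15694 genes -0.292 at 48 h and 0.571 in DMSO), so counts are also given without it. Of 8 synovial sarcoma markers all were detected in all 4 libraries, with a summed level of 1155 to 1242 CPM at 48 h and 1249 to 1279 CPM in DMSO. Of 6 epithelial markers EPCAM, CDH1 and KRT7 had 0 counts and the keratins KRT8, KRT18 and KRT19 were detected, with a sum over the 6 of 3.82 to 4.39 CPM at 48 h and 2.18 to 4.02 CPM in DMSO. None of the 3 keratins was called, and they did not move together. KRT19 stood at 3.35 and 2.59 CPM at 48 h, against 0.62 and 1.89 CPM in DMSO (log2 fold change 1.37, edgeR adjusted p = 0.0693). KRT8 (-1.38, edgeR adjusted p = 0.297) and KRT18 (-0.25, edgeR adjusted p = 0.841) had log2 fold changes below 0. All 3 endothelial markers had 0 counts, and the summed leukocyte, erythroid and myogenic markers each stayed at or under 1.01 CPM in every library. BRD9 stood at 91.8 and 94.1 CPM at 48 h, against 100.1 and 108 CPM in DMSO (log2 fold change -0.16, SE 0.089, edgeR adjusted p = 0.29).

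After 48 h more genes had risen than fallen in the lists of cadherins, axon guidance and the lysosome, and more had fallen than risen in those of ribosome production, glycolysis, DNA replication and mitosis and among histone genes. edgeR called 657 genes higher, 4.01% of those tested, and 882 lower, 5.38%, together 9.39%. The 2 directions differed in shape. The genes that rose changed by a median of 1.502-fold and 141 of them at least 2-fold, 0.861% of all genes tested, while those that fell changed by a median of 1.35-fold and 42 at least 2-fold, 0.256%, together 1.12%. Of the falls 79.5% were smaller than 1.5-fold, against 49.6% of the rises. Genes that fell were also more abundant, with a median of 76.3 CPM over the 4 libraries, against 26.8 CPM for those that rose and 22.2 CPM for all genes tested. The larger a gene's count the smaller the change a test can detect, so the sizes of the calls in the 2 directions are not measured with the same sensitivity. The median GC content of the transcripts was 53.3% for falls, 47.4% for rises and 48.4% for all genes. A correction for GC content moved the counts to 1140 and 1366 and retained 654 of the rises and 881 of the falls. Which direction had more calls depended on the scaling: of the called genes 42.7% were higher, 60.3% when only the library size was used and 55.7% with upper-quartile factors.

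**Figure D1:**
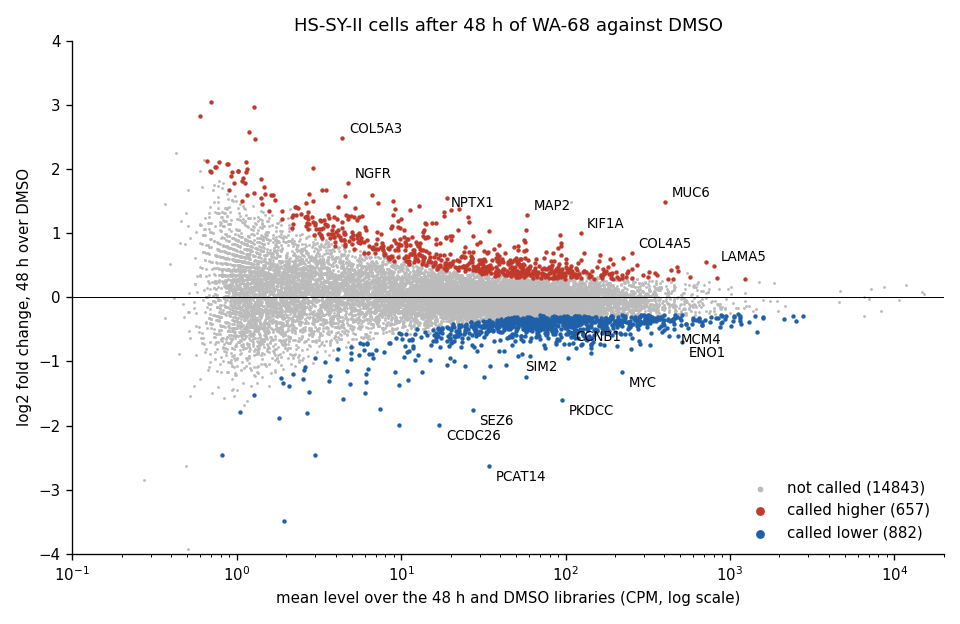
Each point is 1 of the 16382 genes tested, with its mean level in CPM on a log axis across the page and its log2 fold change of 48 h over DMSO up the page, and 1 gene lies outside the axes. The 882 genes called lower lie in a band close to 0 that extends to the most abundant transcripts, while the 657 called higher reach larger changes.

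The calls leaned on each of the 4 libraries, and their number also changed when a library of 12, 24 or 96 h was left out. edgeR called 527 genes higher and 667 lower without replicate 2 of DMSO, and 703 and 1215 without replicate 1. It called 269 and 395 without replicate 1 of 48 h, and 256 and 164 without replicate 2. When each of the 10 libraries was left out in turn, 145 of the rises and 137 of the falls kept their call every time. Both 48 h libraries lay above both DMSO libraries in all 657 rises and below them in all 882 falls, but this held for 22.9% and 25.2% of all genes tested. The genes given below with their values kept their call without any 1 library unless the text says otherwise.

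Large rises took in membrane, matrix and cytoskeletal genes. COL5A3 (ENSG00000080573, GRCh38 chr19:9959561-10010471), a chain of the fibrillar collagen V, stood at 8.44 and 6.41 CPM at 48 h, against 1.24 and 1.42 CPM in DMSO. It was 5.62-fold higher (log2 fold change 2.49, SE 0.31, edgeR adjusted p = 2.31e-05). NGFR (ENSG00000064300, chr17:49495293-49515017), the low-affinity receptor for nerve growth factor, stood at 8.32 and 6.41 CPM at 48 h, against 2.33 and 1.89 CPM in DMSO, a 3.42-fold rise (edgeR adjusted p = 0.000199). Both genes were scarce in DMSO, and their libraries did not overlap. MAP2 (ENSG00000078018, chr2:209424058-209734118), a microtubule protein of neuronal dendrites, stood at 82.4 and 83.3 CPM at 48 h, against 33.9 and 34.4 CPM in DMSO (log2 fold change 1.28, SE 0.097, edgeR adjusted p = 1.06e-08). Its 2 replicates lay within 1 CPM of each other on both sides. KIF1A, a kinesin that carries vesicles along axons, was already abundant and stood at 174.9 and 154.7 CPM at 48 h, against 78.8 and 85.3 CPM in DMSO (log2 fold change 1.01, SE 0.10, edgeR adjusted p = 1.49e-06).

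BMP3, a ligand of the BMP family, stood at 11.2 and 15.2 CPM at 48 h, against 5.13 and 4.02 CPM in DMSO (log2 fold change 1.49, SE 0.22, edgeR adjusted p = 0.00014). Others among the 15 largest rises at a mean of at least 5 CPM were LINC01605 (1.37), PRR36 (1.59), EPPK1 (1.42), CPAMD8 (1.37), the matrix protein MATN2 (1.36), the prion-like protein SPRN (1.35), the neuronal pentraxin NPTX1 (1.33) and the non-coding RNA LNC-LBCS (1.28), with log2 fold changes in parentheses. The apolipoprotein gene APOE rose at a high level, at 124.3 and 116.9 CPM at 48 h, against 69.3 and 64.1 CPM in DMSO. GUCY1A2, a subunit of guanylate cyclase, was also among the 15 (1.39), but edgeR's adjusted p was 0.0503 without replicate 2 of 48 h. MUC6, which encodes a gel-forming mucin, was the most abundant of the large rises and stood at 613 and 580 CPM at 48 h, against 206 and 222 CPM in DMSO. 

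The 15 largest falls, taken by the same minimum level, were led by long non-coding RNAs. PCAT14 (ENSG00000280623, chr22:23536881-23547797) stood at 8.90 and 10.1 CPM at 48 h, against 57.98 and 60.05 CPM in DMSO, and was 6.20-fold lower (log2 fold change -2.63, SE 0.14, edgeR adjusted p = 1.54e-11). CCDC26 (ENSG00000229140, chr8:128634199-129683679) stood at 6.12 and 7.65 CPM at 48 h, against 29.3 and 25.1 CPM in DMSO, 3.98-fold lower. PCAT14 was as low at 24 h, at 10.8 and 9.002 CPM. No other transcript of the 15 largest falls had as small a share of its DMSO level left as PCAT14. LINC01659 and LINC00261, further non-coding RNAs, fell by 1.37 and 1.05 on the log2 scale. Among protein-coding genes SEZ6, a membrane protein of neurons, stood at 14.4 and 10.6 CPM at 48 h, against 46.9 and 37.5 CPM in DMSO (log2 fold change -1.76, SE 0.20, edgeR adjusted p = 6.00e-06). PKDCC, a secreted kinase that phosphorylates matrix proteins, stood at 48.7 and 45.5 CPM at 48 h, against 139.7 and 147.6 CPM in DMSO (log2 fold change -1.61, SE 0.11, edgeR adjusted p = 9.31e-10). The adhesion protein KIRREL3 (-1.74), the channel ASIC4 (-1.29), the scavenger receptor SCARA5 (-1.24), the collagen chain COL6A6 (-1.17) and the proteoglycan BGN (-1.07) fell as well. DDIT4, an inhibitor of the growth kinase complex mTORC1, stood at 21.5 and 16.3 CPM at 48 h, against 38.9 and 51.2 CPM in DMSO (log2 fold change -1.24, SE 0.15). RTL1 was a large fall by this rule (-1.31) whose call rested on single libraries (edgeR adjusted p up to 0.139 with a library left out).

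**Figure D2:**
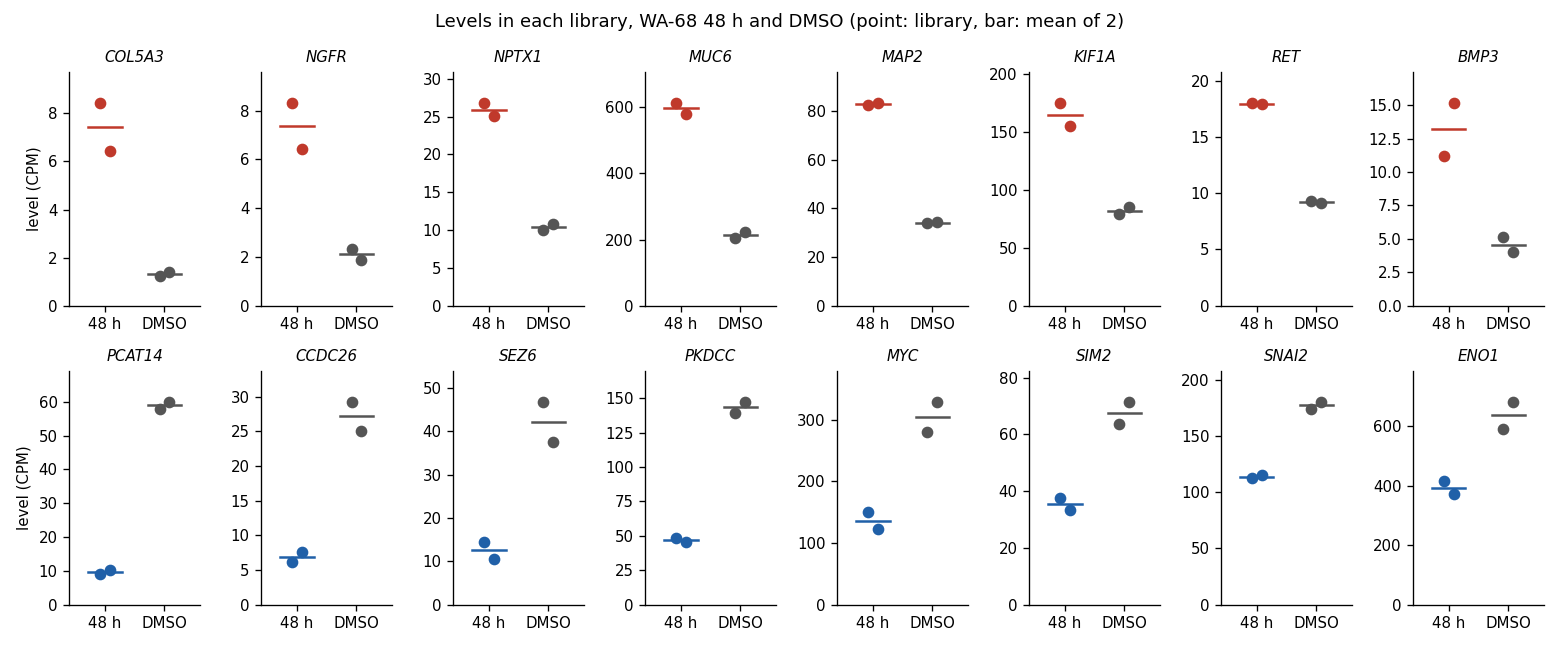
Levels in CPM in each library for 8 genes that rose (upper row) and 8 that fell (lower row), with 48 h left of DMSO, points for libraries and bars for the mean of 2. In none of these 16 panels do the 48 h and DMSO libraries overlap, and the points of MAP2 and PCAT14 lie close to their means.

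Genes of cell growth were lower. MYC (ENSG00000136997, chr8:127735434-127741434), a transcription factor that drives ribosome production and metabolism, stood at 150.4 and 122 CPM at 48 h, against 280.5 and 329.8 CPM in DMSO (log2 fold change -1.16, SE 0.12, edgeR adjusted p = 1.46e-06). Of 39 tested genes of MYC and ribosome biogenesis 29 fell and 0 rose, against 5.38% lower among all genes, with a median log2 fold change of -0.44 beside -0.0070 over all genes tested. MYBBP1A, a nucleolar protein, stood at 106.1 and 104.1 CPM at 48 h, against 151.6 and 176.5 CPM in DMSO (edgeR adjusted p = 0.00014). MRTO4, which helps assemble the large ribosomal subunit, stood at 41.4 and 41.8 CPM at 48 h, against 64.97 and 65.1 CPM in DMSO (edgeR adjusted p = 0.00014). NOLC1 (-0.57), RRP12 (-0.55) and NOP56 (-0.53), nucleolar factors for rRNA maturation and small nucleolar RNPs, fell too. Of the 79 ribosomal protein genes 54 fell and 0 rose, with a median of -0.32 and all 79 between -0.45 and -0.12. RPL4 stood at 1170 and 1105 CPM at 48 h, against 1502 and 1463 CPM in DMSO (edgeR adjusted p = 0.0027). Its call was lost without replicate 2 of 48 h (edgeR adjusted p = 0.0894). These were small and even shifts: 0 of the 79 were called without replicate 2 of 48 h, where the median was -0.25, and 28 without replicate 1 of 48 h. The calls for the ribosomal proteins also numbered 35, 33 and 32 without replicate 2 of 24 h, replicate 2 of 12 h and replicate 1 of 12 h. The count for MYC and ribosome biogenesis was 7 without replicate 2 of 48 h and 17 without replicate 1, with medians no weaker than -0.40. Of 37 translation factors 8 fell, EIF4EBP1, a repressor of cap-dependent translation, among them (log2 fold change -0.84, SE 0.14), with 1 fall without replicate 2 of 48 h and 5 without replicate 1 of 48 h or any library of 12 h or 24 h.

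Transcripts of glycolysis and nucleotide synthesis were lower too. Of 31 genes of hypoxia and glycolysis 14 fell and 1 rose, with a median of -0.38. The falls covered most steps of the pathway, which turns glucose into pyruvate and lactate. They included the glucose transporter SLC2A1 (log2 fold change -0.76), the hexokinase HK2 (-0.84), GPI (-0.48), ALDOA (-0.53), TPI1 (-0.42), GAPDH (-0.53), PGK1 (-0.54), PGAM1 (-0.48), ENO1 (-0.70), PKM (-0.46) and LDHA (-0.61). ENO1, enolase, stood at 414 and 371 CPM at 48 h, against 591 and 682 CPM in DMSO (SE 0.090, edgeR adjusted p = 2.69e-05). LDHA, lactate dehydrogenase, stood at 343 and 332 CPM at 48 h, against 518 and 511 CPM in DMSO (edgeR adjusted p = 6.78e-05). HK2 stood at 26.0 and 30.5 CPM at 48 h, against 47.4 and 54.1 CPM in DMSO (edgeR adjusted p = 0.000269). Of these 11 genes, ENO1, LDHA, PGK1 and HK2 kept their call without any library. The gene that rose was NDRG1 (0.49), a hypoxia-induced gene known to be repressed by MYC, whose call was lost without replicate 1 of DMSO or replicate 2 of 48 h. Without replicate 2 of 48 h 5 of the list were called lower, and its median lay between -0.51 and -0.29 over the libraries left out. Of 28 genes of nucleotide synthesis 16 fell and 0 rose (median -0.35), and 3 did so without replicate 2 of 48 h and 8 without replicate 1. PFAS, an enzyme of purine synthesis, stood at 102.7 and 100.2 CPM at 48 h, against 141.8 and 164.8 CPM in DMSO (log2 fold change -0.59, SE 0.096, edgeR adjusted p = 0.000354). PAICS (-0.49) and the folate enzyme MTHFD1L (-0.72) fell too. Nuclear genes of the respiratory chain moved the same way by less. Of 41 tested 2 were called lower (4.88%, beside 5.38% of all genes tested), while 36 lay below 0, with a median of -0.18. Of 13 mitochondrially encoded transcripts 1, MT-ND6, was called higher (0.37), a call lost without replicate 2 of DMSO or either library of 48 h. Mitochondrial transcripts took 8.75% and 8.46% of the counts at 48 h and 7.81% and 8.12% in DMSO.

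Chaperones and amino acid supply gave smaller counts. Of 26 heat shock and chaperonin genes 10 fell, of which 6 encode subunits of the TRiC chaperonin, which folds actin and tubulin (CCT3, CCT4, CCT5, CCT7, CCT8 and TCP1). Without replicate 2 of 48 h 0 were called, without replicate 1 of 48 h 3, and without 1 of the 4 libraries of 12 h and 24 h 5 or 6. Of 30 genes of the integrated stress response and amino acid supply 7 fell, the arginine transporter SLC7A1 most firmly (log2 fold change -0.62, SE 0.097, edgeR adjusted p = 0.000242), and 1 rose. Without replicate 2 of 48 h 1 of these 30 was called, and without replicate 1 of 48 h or replicate 2 of DMSO 4 were called lower. The unfolded protein response list had 1 fall in 25 genes, a share of 4%.

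Genes of the S phase fell across their functions. The list of DNA replication and G1/S held 50 tested genes, of which 25 fell and 0 rose, with a median of -0.38. Those that fell included the helicase subunits MCM2, MCM3, MCM4, MCM5 and MCM7, the loading factors ORC1, CDC6 and CDT1, and MCM10. The primase subunit PRIM1, the sliding clamp PCNA, the ligase LIG1 and the flap endonuclease FEN1 also fell. MCM10, which activates the helicase, stood at 65.5 and 65.7 CPM at 48 h, against 92.1 and 90.1 CPM in DMSO (log2 fold change -0.47, SE 0.090, edgeR adjusted p = 0.00147). DNMT1, the maintenance DNA methyltransferase, stood at 338 and 343 CPM at 48 h, against 433 and 484 CPM in DMSO (edgeR adjusted p = 0.0026). The regulators E2F1 (-0.44) and E2F2 (-0.39), which switch on S-phase genes, fell as well. Of the S-phase genes named here MCM4, MCM7, CDT1, MCM10, LIG1 and DNMT1 kept their call without any library. Without replicate 2 of 48 h 7 of the list were called and without replicate 1 of 48 h 15, and the median stayed between -0.38 and -0.33 over all libraries left out. Of 26 genes of homologous recombination and the Fanconi pathway 8 fell, XRCC3 and EXO1 among them, and 0 did so without replicate 2 of 48 h, 1 without replicate 1 of 48 h and 5 without either library of 12 h.

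Most histone genes were lower. This group was chosen after its values were seen, as all tested genes with symbols of the replication-dependent clusters of H1, H2A, H2B, H3 and H4. Of 62 such genes 49 were called lower and 1 higher, with a median log2 fold change of -0.59, and 28 of the 50 calls held without any library. The other 12 did not pass the test, H4C4 (0.22) and H4C14 (0.17) among them. The falls covered 4 of 4 H1 genes, 12 of 16 H2A genes, 15 of 17 H2B genes, 10 of 12 H3 genes and 8 of 13 H4 genes. H2AC12 (ENSG00000274997, chr6:27147129-27147515) stood at 85.5 and 84.5 CPM at 48 h, against 133 and 162 CPM in DMSO (log2 fold change -0.79, SE 0.10, edgeR adjusted p = 2.35e-05). H3C7 (ENSG00000277775, chr6:26250195-26250605) stood at 89.4 and 90.7 CPM at 48 h, against 134.8 and 144 CPM in DMSO (edgeR adjusted p = 0.000226). H2BC6 was the member that rose (0.64), a call lost without replicate 1 of 48 h. Without replicate 2 of 48 h 31 of the 62 were called lower, with a median of -0.55. Most of these mRNAs end in a stem-loop and not in a poly(A) tail, so libraries made by poly(A) selection capture only part of them, and their coding sequences are near-identical within a family, so the share of each single gene is uncertain.

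Mitotic genes were lower too, each by a small amount. Of 48 G2/M genes 25 fell and 0 rose, with a median of -0.31 and a largest fall of -0.58. CDC25B, the phosphatase that activates the mitotic kinase, stood at 187.3 and 161 CPM at 48 h, against 241 and 272 CPM in DMSO (log2 fold change -0.56, SE 0.095, edgeR adjusted p = 0.0006). CCNB1 (ENSG00000134057, chr5:69167010-69178245), cyclin B1, stood at 89.3 and 87.1 CPM at 48 h, against 120.1 and 120.1 CPM in DMSO (log2 fold change -0.44, SE 0.091, edgeR adjusted p = 0.00272). PLK1 (ENSG00000166851, chr16:23677656-23690367), a kinase of mitotic entry, stood at 72.8 and 66.0 CPM at 48 h, against 93.6 and 114 CPM in DMSO (edgeR adjusted p = 0.00214). The call of CCNB1 and that of PLK1 were each lost without replicate 2 of 48 h, with edgeR adjusted p of 0.0662 and 0.0717. In the list 2 genes were called without replicate 2 of 48 h, UBE2C and CDC25B having kept their call throughout, and 10 without replicate 1 of 48 h, while the median stayed between -0.33 and -0.29. The list of CDK inhibitors and D cyclins did not fall as a whole. Of its 16 tested genes 2 fell and 0 rose, while 8 lay above 0 and 8 below, with a median of -0.10. The D cyclin CCND2, which acts in early G1, stood at 336 and 322 CPM at 48 h, against 484 and 448 CPM in DMSO. The inhibitor CDKN2C fell by 0.46 on the log2 scale, a call lost without either library of 48 h. Of 21 p53 targets 1 rose and 2 fell, and of 14 BCL2 family genes 1 fell, BID, a call lost without any of 7 of the 10 libraries. The shares called in these 2 lists, 14.3% and 7.14%, lay near the 9.39% of all genes tested.

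**Figure D3:**
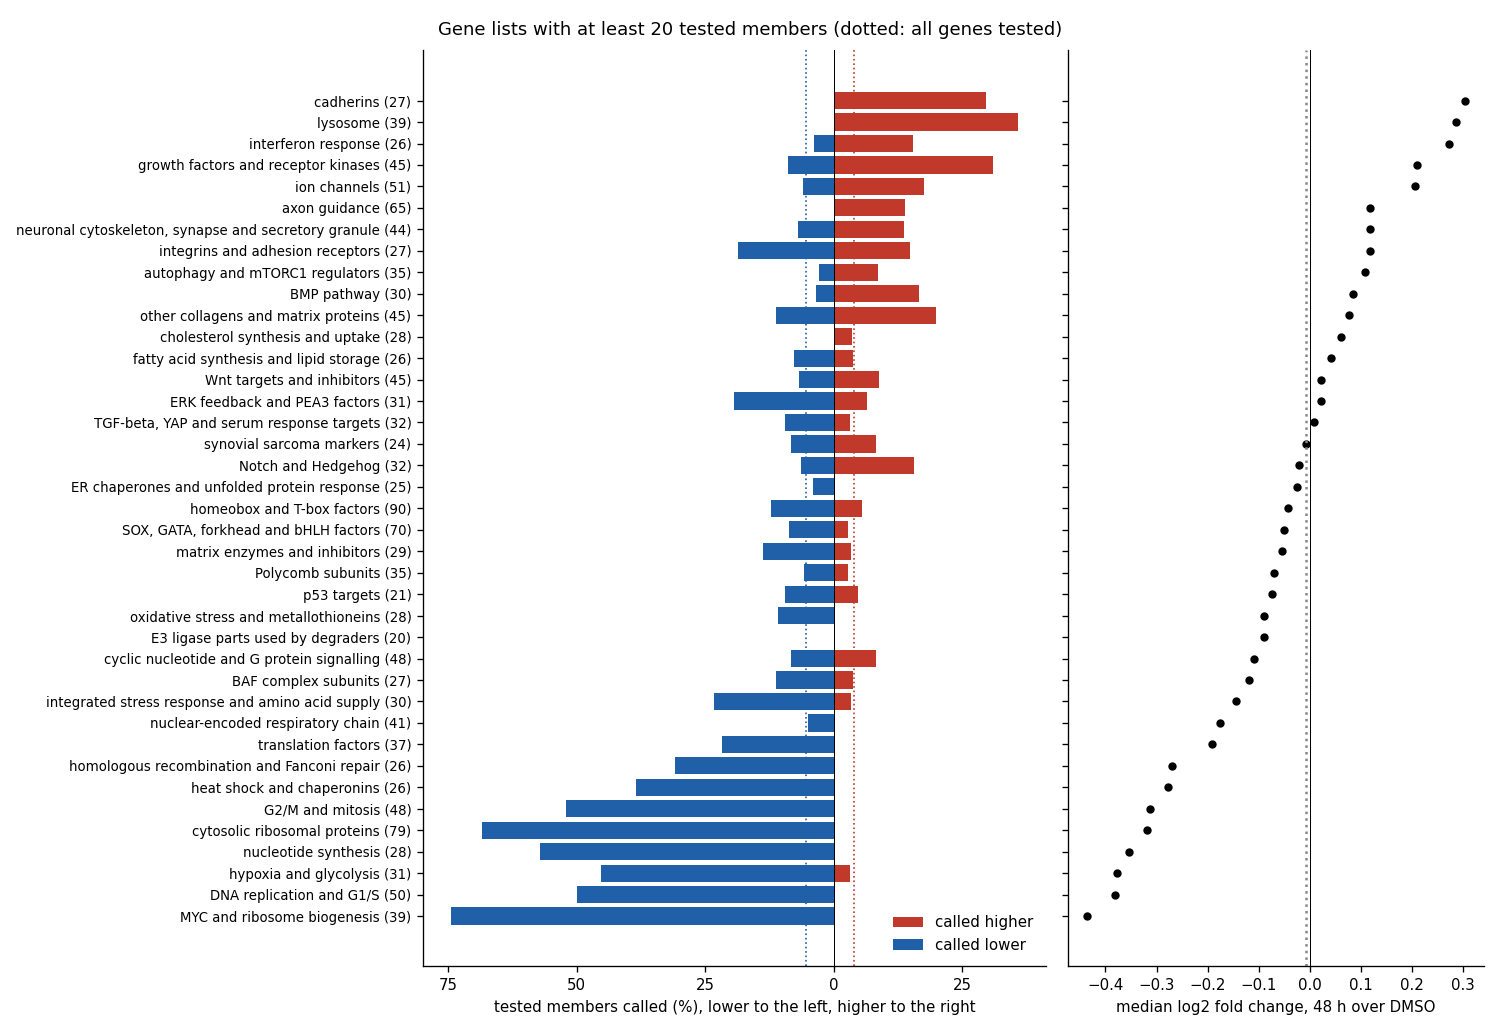
For each gene list with at least 20 tested members (number in parentheses), the left panel gives the percent of members called higher (right of 0) and lower (left of 0) at 48 h against DMSO, and the right panel the median log2 fold change. Lists run from the highest median at the top, cadherins and lysosome, to the lowest at the bottom, MYC and ribosome biogenesis, and dotted lines mark 4.01% higher and 5.38% lower among all genes tested.

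The promoters of cell-cycle genes carry known short motifs, and 3 are printed because the groups above moved together. Promoters of G2/M genes typically hold CCAAT boxes and a cell cycle homology region (CHR), TTTGAA or the variant TTTAAA, and those of G1/S genes hold E2F sites. Sequences are from RefSeq (build GRCh38.p14), from 250 bases before to 50 bases after RefSeq's start, which can differ from the GENCODE gene ends given above, 5′ to 3′ on the strand of the gene. Capitals mark the box CCAAT, the CHR sequence TTTGAA and its variant TTTAAA in CCNB1 (chr5:69166900-69167199, plus strand) and PLK1 (chr16:23678639-23678938, plus strand). In MCM7 (chr7:100101348-100101647, minus strand) they mark CCAAT and 2 E2F sequences, TTGGCGC and TTCCCGC. All were searched on both strands.
CCNB1: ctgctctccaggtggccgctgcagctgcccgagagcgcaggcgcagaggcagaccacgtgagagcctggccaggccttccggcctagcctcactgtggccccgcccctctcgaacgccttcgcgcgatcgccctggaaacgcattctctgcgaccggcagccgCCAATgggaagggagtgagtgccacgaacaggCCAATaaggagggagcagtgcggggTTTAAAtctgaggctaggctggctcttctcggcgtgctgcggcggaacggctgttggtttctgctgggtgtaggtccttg
PLK1: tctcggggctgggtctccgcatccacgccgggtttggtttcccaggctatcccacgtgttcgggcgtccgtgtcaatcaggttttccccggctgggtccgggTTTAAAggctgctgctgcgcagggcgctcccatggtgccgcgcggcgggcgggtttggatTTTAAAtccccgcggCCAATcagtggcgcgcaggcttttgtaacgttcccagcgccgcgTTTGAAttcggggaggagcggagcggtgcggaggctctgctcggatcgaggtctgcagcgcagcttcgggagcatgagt
MCM7: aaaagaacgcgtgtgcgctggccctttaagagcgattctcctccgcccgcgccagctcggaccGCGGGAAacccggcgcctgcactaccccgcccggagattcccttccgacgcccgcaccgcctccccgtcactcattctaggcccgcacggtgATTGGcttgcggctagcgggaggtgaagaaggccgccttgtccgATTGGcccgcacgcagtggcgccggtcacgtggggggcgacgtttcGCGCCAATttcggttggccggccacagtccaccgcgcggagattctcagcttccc
CCNB1 held 2 CCAAT boxes, 87 and 55 bases before the start, and TTTAAA 30 bases before it. PLK1 held 1 CCAAT box and TTTGAA, 73 and 29 bases before the start, besides 2 copies of TTTAAA. MCM7 held TTCCCGC 187 and TTGGCGC 5 bases before the start, the second overlapping 1 of its 3 CCAAT boxes. Of the 48 G2/M genes 40 had a promoter in the table, and TTTGAA stood in 29 of these (72.5%), against 15.4% of all 27305 promoters and 9.66% of those of genes tested. CCAAT stood in 28 of the 40 (70.0%), against 35.7% of all promoters, and TTTAAA in 14 (35.0%), against 12.3%. Of 41 G1/S promoters, 27 held an E2F sequence (65.85%), against 9.33% of all promoters and 14.8% of those of genes tested. Over all genes called lower at 48 h with a promoter in the table, 682 in number, TTTGAA stood in 14.4% and an E2F sequence in 18.5%, and over the 483 called higher in 7.87% and 10.1%. A match describes the letters in the window and does not show that a factor binds there.

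The direct comparison of 48 h with 24 h asked what changed during the second day. It sets no level against DMSO, although all 10 libraries enter the estimate of the spread between replicates. edgeR called 32 genes higher at 48 h than at 24 h, 0.195% of those tested, and 92 lower, 0.562%, together 0.757%. Mitotic genes were prominent among those that were lower. Of the 48 G2/M genes 29 were called lower at 48 h than at 24 h, with a median of -0.46. In the G1/S list 1 was called lower, CCNA2. The G1/S median was also negative, at -0.22, beside -0.0031 over all genes tested. CCNB1 stood at 89.3 and 87.1 CPM at 48 h, against 142 and 133.9 CPM at 24 h (log2 difference -0.64, SE 0.091, edgeR adjusted p = 0.0022). KIF20A, a kinesin of cell division, stood at 101.1 and 83.1 CPM at 48 h, against 170.1 and 143 CPM at 24 h (-0.76, SE 0.11, edgeR adjusted p = 0.00228). The means of both genes were above the DMSO mean at 24 h, where edgeR did not call them, and below it at 48 h. The means of PLK1 (-0.70), PIMREG (-0.77), CDC20 (-0.65), PTTG1 (-0.64) and BIRC5 (-0.59) had the same order. Of the 62 histone genes 15 were lower at 48 h than at 24 h and 1 higher, H2BC6, with a median of -0.40. H3C7 stood at 89.4 and 90.7 CPM at 48 h, against 128.5 and 131 CPM at 24 h (-0.53, SE 0.099, edgeR adjusted p = 0.00943). MUC6 was the clearest rise between the 2 times, at 613 and 580 CPM at 48 h against 363 and 294 CPM at 24 h (0.86, SE 0.11, edgeR adjusted p = 0.00062). TMEM132B, a membrane protein, stood at 75.5 and 69.8 CPM at 48 h, against 46.3 and 51.2 CPM at 24 h, and BAIAP3, a factor of vesicle release, at 24.6 and 24.9 CPM at 48 h, against 15.1 and 15.1 CPM at 24 h.

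These calls between 48 h and 24 h depended on every one of the 4 libraries compared. Without replicate 1 or 2 of 24 h edgeR called 2 and 3 genes higher and 0 and 8 lower, and without replicate 1 or 2 of 48 h 1 and 1 higher and 1 and 0 lower. Without either library of 12 h it called 20 higher and 54 lower. Without a library of DMSO or 96 h it called 57 to 67 higher and 127 to 155 lower. The medians changed less: that of the G2/M list lay between -0.50 and -0.43 and that of the histone genes between -0.44 and -0.35 over the 10 libraries left out, with counts of 0 to 38 and 0 to 35 genes called lower. Growth genes gave no such calls. Of the 39 genes of MYC and ribosome biogenesis and the 79 ribosomal protein genes edgeR, DESeq2 and limma-voom each called 0 between 48 h and 24 h and 0 had an unadjusted edgeR p under 0.05, with medians of -0.04 and -0.02, and MYC itself stood at 150.4 and 122 CPM at 48 h, against 141.8 and 129.8 CPM at 24 h (log2 difference 0.01, SE 0.12).

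**Figure D4:**
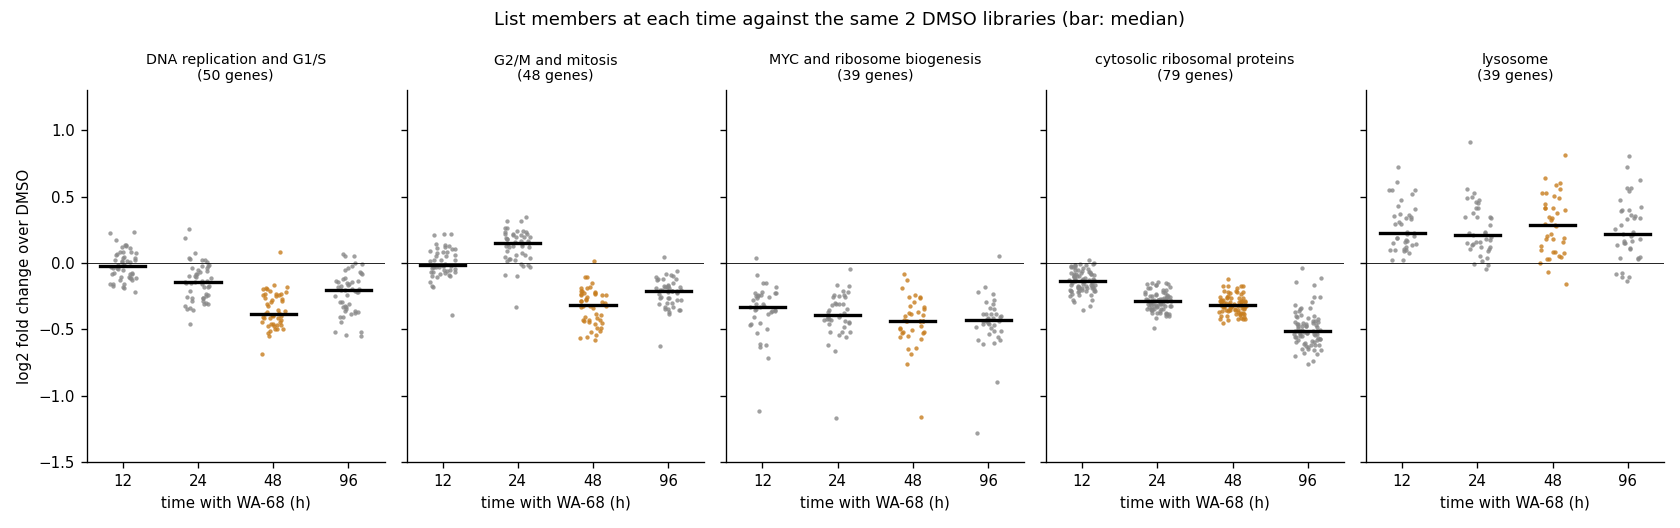
Each point is the log2 fold change of 1 list member over DMSO after 12, 24, 48 or 96 h, with bars for medians and 48 h in orange, and all 4 times are set against the same 2 DMSO libraries. The G2/M median was -0.02, 0.15, -0.31 and -0.21 in the order of time and that of MYC and ribosome biogenesis -0.33, -0.39, -0.44 and -0.43.

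**Figure D5:**
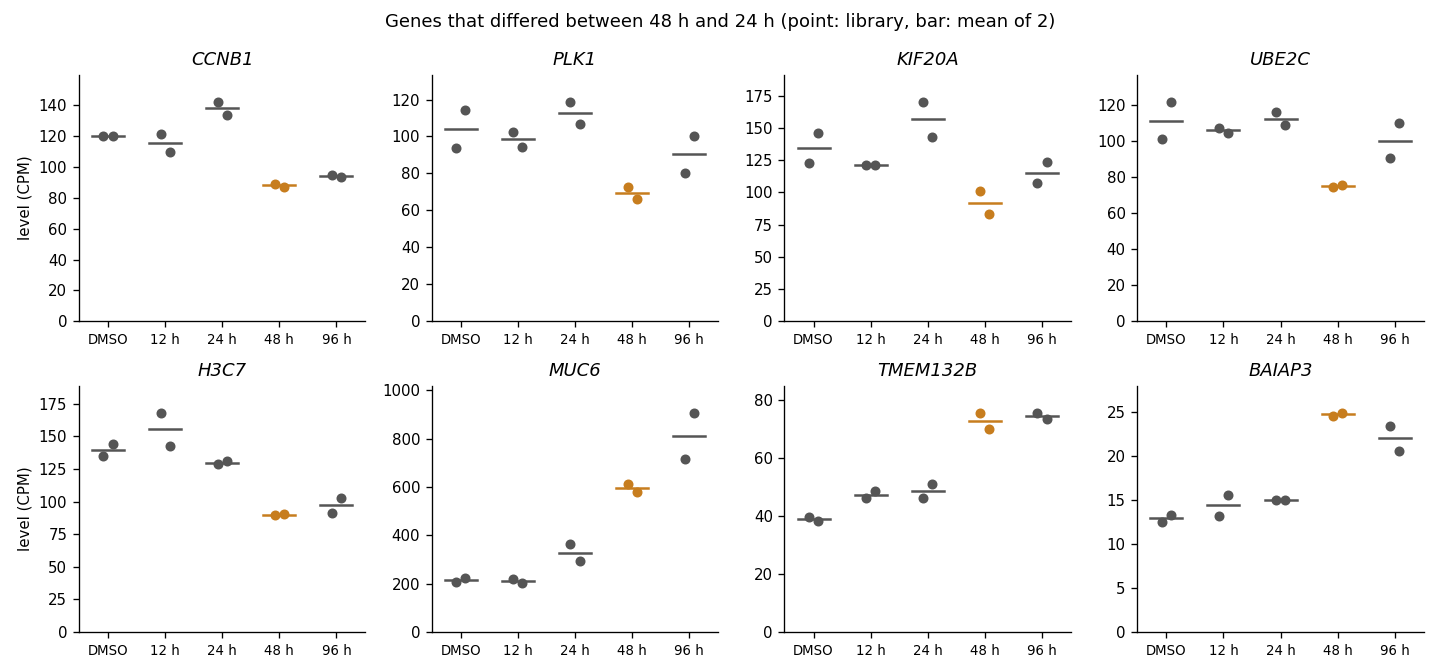
Levels in CPM of 8 genes called between 48 h and 24 h, in each library of DMSO and of 12, 24, 48 and 96 h, with bars for the mean of 2 and 48 h in orange. The 4 mitotic genes CCNB1, PLK1, KIF20A and UBE2C had their lowest mean at 48 h, while MUC6, TMEM132B and BAIAP3 had higher means at 48 h and 96 h than at 24 h.

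Lysosomal genes were higher. The lysosome digests macromolecules with acid hydrolases, and many of its genes are driven by TFEB and its relatives through an E-box of the CLEAR type. Of 39 tested genes 14 rose and 0 fell, against 4.01% higher among all genes, with a median of 0.29, and between 6 (without replicate 1 of 48 h) and 17 rose with a library left out. The rises covered proteases, glycosidases, sulfatases and lipid carriers. CTSA (ENSG00000064601, chr20:45890144-45898820), a carboxypeptidase that protects other hydrolases, stood at 231 and 225 CPM at 48 h, against 147 and 170.2 CPM in DMSO (log2 fold change 0.53, SE 0.091, edgeR adjusted p = 0.00067). NEU1 (ENSG00000204386, chr6:31857659-31862906), its partner sialidase, stood at 72.6 and 64.6 CPM at 48 h, against 45.3 and 44.9 CPM in DMSO (log2 fold change 0.60, SE 0.11, edgeR adjusted p = 0.000868). GRN, the progranulin precursor, stood at 239 and 207 CPM at 48 h, against 139 and 158 CPM in DMSO (edgeR adjusted p = 0.00106). The cholesterol carrier NPC2 (0.53), the sulfatase ARSA (0.64) and the iduronidase IDUA (0.81) rose as well. The promoters of CTSA (chr20:45891085-45891384, plus strand) and NEU1 (chr6:31862772-31863071, minus strand) are shown with the E-box CACGTG in capitals.
CTSA: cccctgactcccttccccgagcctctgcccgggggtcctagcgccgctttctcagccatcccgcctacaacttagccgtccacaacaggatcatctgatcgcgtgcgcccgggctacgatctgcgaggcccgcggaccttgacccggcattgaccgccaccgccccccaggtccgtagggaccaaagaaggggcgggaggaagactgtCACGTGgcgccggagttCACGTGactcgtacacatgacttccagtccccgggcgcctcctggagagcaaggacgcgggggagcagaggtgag
NEU1: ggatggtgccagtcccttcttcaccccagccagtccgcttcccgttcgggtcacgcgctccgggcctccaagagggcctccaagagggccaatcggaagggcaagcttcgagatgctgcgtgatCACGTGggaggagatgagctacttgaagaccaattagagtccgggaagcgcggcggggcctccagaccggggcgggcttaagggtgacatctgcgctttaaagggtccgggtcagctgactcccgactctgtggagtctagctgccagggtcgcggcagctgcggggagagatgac
CTSA held CACGTG 42 and 25 bases before the start and NEU1 126 bases before it. Of the 39 lysosomal genes 23 had a promoter in the table, of which 9 (39.1%) held CACGTG and 8 (34.8%) the longer TCACGTG, against 7.43% and 3.82% of all promoters. Promoters of MYC and ribosome biogenesis genes held CACGTG as often, in 14 of 32 (43.8%), but TCACGTG in 2 (6.25%). The E-box is thus found in a list that rose and in one that fell. In the list of autophagy and mTORC1 regulation the share called either way was 11.4%, beside 9.39% of all genes tested. Of 35 genes of autophagy and mTORC1 regulation 3 rose, WIPI1 among them, and 1 fell, DDIT4, and 1 rose without replicate 2 of DMSO.

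Cadherins and axon guidance genes were more often higher than lower, while integrins and other adhesion receptors changed in both directions. Of 27 tested cadherins and protocadherins 8 rose and 0 fell, with a median of 0.30. PCDH1 stood at 14.6 and 13.4 CPM at 48 h, against 6.53 and 7.09 CPM in DMSO (log2 fold change 1.05, SE 0.17, edgeR adjusted p = 0.000351). PCDH9, the most abundant of the called members, stood at 794 and 914 CPM at 48 h, against 655 and 509.7 CPM in DMSO (0.55, SE 0.10), and the giant cadherin FAT3 rose by 0.51. N-cadherin, CDH2, rose by 0.36 on the log2 scale, a call lost without either library of 48 h. The count was 3 without replicate 2 of 48 h, 4 without replicate 1 of 48 h and 5 without replicate 1 of DMSO. Of 65 axon guidance genes 9 rose and 0 fell (median 0.12), 6 without replicate 2 of 48 h. The 9 rises made up 13.8% of the axon guidance list, beside 9.39% of all genes tested that were called either way. Guidance molecules steer growing axons and also act in cell migration. The rises took in ligands, SEMA3C (log2 fold change 0.69, SE 0.090) and SLIT2 (0.41), and receptors, ROBO2 (0.74, SE 0.11), EPHA5 (0.61) and EPHA3 (0.44). SEMA3C stood at 159.5 and 158 CPM at 48 h, against 99.7 and 97.8 CPM in DMSO (edgeR adjusted p = 3.65e-05). The SLIT receptor ROBO2 stood at 61.6 and 67.0 CPM at 48 h, against 41.2 and 35.6 CPM in DMSO (edgeR adjusted p = 0.000103). Of 27 integrins and adhesion receptors 4 rose and 5 fell, with a median of 0.12. ALCAM stood at 295.1 and 287.5 CPM at 48 h, against 226 and 202 CPM in DMSO (0.44, SE 0.088, edgeR adjusted p = 0.00211), and KIRREL3, given above, fell by 1.74 on the log2 scale. These counts became 1 and 1 when replicate 2 of 48 h was left out, 4 and 2 for replicate 1 of 48 h, 2 and 3 for replicate 2 of DMSO and 4 and 3 for replicate 2 of 12 h.

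Ion channel and neuronal genes changed in both directions. Of 51 tested ion channel genes 9 rose and 3 fell, with a median of 0.21. UNC80, which anchors the sodium leak channel, stood at 10.4 and 10.7 CPM at 48 h, against 3.65 and 4.02 CPM in DMSO (log2 fold change 1.47, SE 0.20, edgeR adjusted p = 7.04e-05). The pacemaker channel HCN2 stood at 101.7 and 87.0 CPM at 48 h, against 54.6 and 62.1 CPM in DMSO (0.70, SE 0.10). The sodium channel SCN9A (1.11) and the calcium channel subunit CACNA2D1 (0.71) rose, and the potassium channel KCNMA1 fell by 0.99 on the log2 scale. Without replicate 1 of 48 h 4 of the list were called higher and 1 lower, and without replicate 2 of 48 h 6 were called higher. Of 44 genes of the neuronal cytoskeleton, synapse and secretory granule 6 rose and 3 fell. Besides MAP2 the rises included SEZ6L2 (0.59). SEZ6L2 and SEZ6, members of 1 family, thus moved in opposite directions: SEZ6L2 stood at 64.4 and 64.4 CPM at 48 h, against 37.7 and 48.4 CPM in DMSO, and SEZ6 fell by 1.76. With a library left out the counts ran to 4 rises, without either library of 48 h, and to 9, without replicate 1 of 96 h.

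Among 45 tested growth factors and receptor kinases 14 rose and 4 fell, with a median of 0.21. RET, the receptor for GDNF-type ligands, stood at 18.03 and 17.9 CPM at 48 h, against 9.33 and 9.10 CPM in DMSO (log2 fold change 0.96, SE 0.15, edgeR adjusted p = 0.000208). PDGFRA, a receptor of mesenchymal cells, stood at 35.5 and 37.6 CPM at 48 h, against 52.7 and 58.5 CPM in DMSO (-0.60, SE 0.11, edgeR adjusted p = 0.00078). With NGFR, these are the 3 members of the list that kept their call without any library. KIT (0.46), its ligand KITLG (0.44), EGFR (0.31) and MET (0.80) were called higher and IGF1R (-0.42) and its ligand IGF2 (-0.41) lower, calls that were lost without at least 1 library. The list held 3 rises without replicate 2 of 48 h, 4 without replicate 1 of 48 h and 8 without replicate 1 of DMSO, and its falls numbered 1 without replicate 2 of 48 h and 2 without replicate 2 of DMSO.

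Matrix genes changed in both directions as well. Of 8 fibrillar collagen genes 3 rose, the 3 chains of collagen V, COL5A1, COL5A2 and COL5A3, of which COL5A3 kept its call without any library. Of 45 other collagens and matrix proteins 9 rose and 5 fell. COL4A5, a chain of basement membrane collagen, stood at 296 and 327 CPM at 48 h, against 196.9 and 188 CPM in DMSO (log2 fold change 0.69, SE 0.089, edgeR adjusted p = 2.69e-05). LAMA5, a laminin chain of basement membranes, stood at 971 and 906 CPM at 48 h, against 588 and 748 CPM in DMSO (0.49, SE 0.095, edgeR adjusted p = 0.00176). MATN2 (1.36) also kept its call, and of the genes that fell BGN did. The proteoglycan DCN (-0.34) and elastin ELN (-0.97) were called lower, and both calls were lost with some library left out. In this list 3 rose and 3 fell without replicate 1 of 48 h, and 6 rose and 1 fell without replicate 2 of 48 h. In the list of mucins and secreted glycoproteins 3 of 7 rose and 1 fell, and besides MUC6 the rises were MUC1 (0.98) and MUC2 (0.52), which both lost their call without at least 1 library. Among 8 tested epithelial markers SPINT1 (1.14) and OCLN (1.02) were called higher, each at under 6 CPM in every library and lost without 3 of them.

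Several transcription factors of mesenchymal and developmental programmes fell. Of 17 mesenchymal regulators 5 fell and 1 rose, CDH2, with a median of -0.17. SNAI2, a zinc-finger repressor, stood at 112 and 116 CPM at 48 h, against 174 and 181 CPM in DMSO (log2 fold change -0.64, SE 0.097, edgeR adjusted p = 0.000183). The forkhead factor FOXF2 stood at 38.0 and 38.0 CPM at 48 h, against 64.7 and 75.4 CPM in DMSO (-0.88, SE 0.11, edgeR adjusted p = 2.29e-05), and the homeobox factor PRRX2 fell by 0.74. SIM2, a bHLH factor taken here as a synovial sarcoma marker, stood at 37.6 and 33.4 CPM at 48 h, against 63.5 and 71.5 CPM in DMSO (-0.92, SE 0.11, edgeR adjusted p = 1.77e-05). The other 7 markers, SS18, SSX1, TLE1, BCL2, CD99, FZD10 and TNFRSF19, did not pass the test, with log2 fold changes between -0.23 and 0.15. Of 90 homeobox and T-box factors 11 fell and 5 rose (median -0.04), a share of 17.8% beside 9.39% of all genes tested. After the GC correction the falls and rises numbered 12 and 14. UNCX (-0.94) and TBX2 (-0.60) kept their call. DLX3 had the largest fold change of the list but was scarce, at 0.92 and 1.604 CPM at 48 h against 0.16 and 0.12 CPM in DMSO, and lost its call without replicate 2 of 48 h (edgeR adjusted p = 0.145). Without replicate 2 of 48 h 2 of the list fell and 2 rose, and without replicate 1 of 48 h 7 fell and 1 rose. Without replicate 1 of DMSO the rises numbered 2.

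Lists of chromatin, ligase, interferon and cholesterol genes held 0 to 5 calls each. The share called in either direction was 14.8% of the BAF subunits and 19.2% of the interferon genes, above the 9.39% of all genes, and 8.57% of the Polycomb subunits and 3.57% of the cholesterol genes, below it. Of 27 BAF subunits 1 rose, BICRAL, and 3 fell, SMARCD2, SMARCB1 and ACTB, and all 4 lost their call without at least 1 library. Of 35 Polycomb subunits 1 rose, RYBP, and 2 fell, of which SCMH1 kept its call (log2 fold change -0.57, SE 0.11). Among 20 parts of E3 ligases used by degraders edgeR called 0, with 4 genes that had a raw p below 0.05, and DESeq2 and limma-voom called 0 and 0. Of 26 interferon genes 4 rose and 1 fell, IFIT3 (1.24) the largest of the called rises and IFITM1 (-0.85) the fall. None of these 5 calls held without every library left out in turn, 0 of the list were called without replicate 1 of 48 h, and 1 rose without replicate 2 of DMSO. Of 28 cholesterol genes 1 rose, the sterol reductase TM7SF2 (1.16, SE 0.16), and kept its call.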

How the data were processed

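RNA of HS-SY-II cells was sequenced as paired 150 bp reads from stranded poly(A) libraries, per the labels' protocols. The authors deposited raw read counts per gene. bcl2fastq, FastQC, Trim Galore, cutadapt, STAR, featureCounts and GRCh38 are named in the submitters' processing notes. Versions, annotation and strand setting: not given in the sources used here. Symbols were found for 42291 of 63140 identifiers, and positions come from GENCODE 29, which may not be the release used for counting. Library totals ran from 7349744 to 13200051 counts.

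All 10 libraries were fitted by group in edgeR 4.0.16 (R 4.3.3) after filterByExpr and TMM scaling, and the quasi-likelihood F test was used with Benjamini-Hochberg adjustment, with 5 residual degrees of freedom and a prior of 18.5. SE is the log2 fold change divided by the square root of F. The pipeline was tested on simulated data. The genes described are BRD9, BICRA, BICRAL, SS18 and SSX1, and the 15 largest rises and falls at a mean of at least 5 CPM with groups that do not overlap. To these were added the 10 smallest adjusted p-values each way, up to 3 called members of each of 54 gene lists and direction, the 5 largest non-coding RNAs and the 8 largest changes from 24 h each way. Other list members, the histone genes and the promoters were chosen after values were seen. The members and lists were chosen with earlier results of these data known. Alternatives were DESeq2 1.42.0, limma-voom 3.58.1, other scalings and filters, a lowess GC offset (added after seeing the data), a replicate block and leaving out each library. The p-values set each difference against a spread between replicates that was estimated over all 10 libraries. All cultures are replicates of 1 line, so the p-values do not extend to other lines.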

Additional observations from a re-analysis of the deposited data

Results flagged for a closer look

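Among the genes described, 22 differed between 48 h and 24 h of WA-68 when the difference was tested directly. The test was that of edgeR, at an adjusted p under 0.05 over all 16382 genes. The genes described include the largest changes from 24 h each way, which were picked from this same comparison. The count of 22 thus follows in part from that choice and is not a separate result. The calls of this comparison depend on single libraries, as the counts given above show. Mitotic genes were lower at 48 h than at 24 h. The log2 differences of 48 h minus 24 h were -0.7672 for PIMREG, -0.763 for KIF20A, -0.6979 for PLK1, -0.654 for CDC20, -0.6448 for CCNB1, -0.6433 for PTTG1, -0.6192 for CCNA2, -0.5852 for BIRC5 and -0.5821 for UBE2C. CDKN2C, an inhibitor of the G1 kinases, was lower by the same test, at -0.4799.

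The other 12 were higher at 48 h than at 24 h. Of all genes tested 0.195% were called higher in this comparison. Among the lists such calls took in 2 of 7 mucins and secreted glycoproteins, 1 of 8 fibrillar collagens and 1 of 45 other collagens and matrix proteins. They also took in 1 of 44 neuronal genes, 2 of 51 ion channels and 1 of 27 cadherins. The lists of fatty acid synthesis and lipid storage (26 genes) and of SOX, GATA, forkhead and bHLH factors (70) held 1 each. The differences were 0.861 for MUC6 and 0.7568 for its neighbour MUC2, 0.7138 for the matrix protein MATN2 and 0.381 for the collagen chain COL5A1. They were 0.7517 for the glutamate receptor subunit GRIN1, 0.716 for BAIAP3, 0.6856 for ZCCHC12, 0.6656 for the cadherin CDH23, 0.6475 for FIBCD1, 0.5724 for TMEM132B, 0.5431 for RHPN1 and 0.519 for BRINP2. BRINP2 lay closest to the threshold (edgeR adjusted p = 0.049) and MUC6 was the clearest (edgeR adjusted p = 0.00062).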

How the results depend on the processing

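No call of a gene named by the rule was reversed under any alternative run, but the balance of the calls turned over. More genes were called lower than higher at 48 h against DMSO (882 and 657), whereas more were higher with library size as the only scaling (826 against 543), with upper-quartile factors (808 against 643), with only the 4 libraries compared (491 against 462) and without replicate 2 of 48 h (256 against 164). At 48 h against DMSO, DESeq2 called 441 genes higher and 647 lower and limma-voom 671 and 870, beside 657 and 882. Both counts moved by over 1.5 times with the GC offset, to 1140 higher and 1366 lower. They did so too at an adjusted p under 0.01, to 270 and 373, and at a log2 fold change of at least 1, to 141 and 42. Leaving out either library of 48 h also moved both by over 1.5 times. The count of falls alone moved by as much with library size only (543) and with only the 4 libraries compared (462). Library size alone put the median of all genes at 0.05. It called 33 ribosomal protein genes, 10 nucleotide synthesis genes, 5 heat shock and chaperonin genes, 3 repair genes, 3 integrins and adhesion receptors and 3 other matrix genes lower, and 8 homeobox and T-box factors higher. The GC offset raised the rises to 22 for the lysosome, 16 for axon guidance, 14 each for ion channels and for homeobox and T-box factors, 10 for the neuronal list, 8 each for integrins and for the Wnt pathway and 7 for autophagy. It raised the falls to 42 for G2/M, 18 for repair, 16 for heat shock and chaperonins, 15 for translation factors, 8 for other matrix genes, 6 for Polycomb subunits and 5 each for the respiratory chain, ion channels, the Wnt pathway and BAF subunits. Between 48 h and 24 h the higher genes numbered 117 with the GC offset, 21 with library size only, 69 with no filter, 163 with only 4 libraries, 7 at an adjusted p under 0.01 and 2 at a log2 fold change of at least 1. The lower genes numbered 206 with the GC offset, 158 with no filter, 261 with only 4 libraries, 31 at an adjusted p under 0.01 and 0 at a log2 fold change of at least 1. The cause was not tested. With 1 library left out, where a lone replicate is taken to vary like the other groups, 256 to 825 genes were higher and 164 to 1215 lower than in DMSO, and 1 to 67 higher and 0 to 155 lower than at 24 h. Of 215 genes named by the rule 91 kept their call every time. 

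With the replicate number as a block 622 genes were called higher and 790 lower at 48 h against DMSO, and 22 and 71 against 24 h. The deviations of same-numbered libraries from their group mean correlated weakly, at -0.123 between 48 h and DMSO and 0.186 between 96 h and DMSO. With 2 libraries a group these values cannot decide whether the numbers mark paired samples, and no label says that they do. With the 48 h numbers crossed 782 genes were called higher and 1048 lower. Depth limits genes of few counts, and counts cannot show changes in protein.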

Other observations

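Signalling lists that the text above leaves out changed in both directions. The share called either way was 25.8% for ERK feedback, 15.6% for Wnt, 20% for BMP and 21.9% for Notch and Hedgehog, beside 9.39% of all genes tested. Of 31 tested genes of ERK feedback and the PEA3 factors 6 fell and 2 rose. The phosphatase DUSP2 stood at 2.77 and 2.71 CPM at 48 h, against 7.07 and 6.97 CPM in DMSO (log2 fold change -1.35, SE 0.24, edgeR adjusted p = 0.000927), and PHLDA1 rose by 0.53. DUSP6 and ETV4 fell by 0.56 and 0.58, and each lost its call without 1 library. Of 45 genes of the Wnt pathway 4 rose and 3 fell. WNT16 stood at 79.0 and 80.2 CPM at 48 h, against 53.4 and 51.7 CPM in DMSO (0.60, SE 0.092, edgeR adjusted p = 0.000208), and was the member that kept its call without any library. Of 30 genes of the BMP pathway 5 rose and 1 fell, and besides BMP3 the inhibitor FSTL3 kept its rise (0.52). Of 32 Notch and Hedgehog genes 5 rose, SHH among them (0.45), and 2 fell, and each of these calls was lost without at least 1 library. Of 32 tested targets of TGF-beta, YAP and serum response 3 fell and 1 rose. In this list 16 genes lay above 0 and 16 below, with a median of 0.008. Among the falls ANKRD1, a target of YAP, stood at 2.77 and 1.604 CPM at 48 h, against 6.53 and 6.74 CPM in DMSO (-1.58, SE 0.28, edgeR adjusted p = 0.00078). Of 48 tested genes of cyclic nucleotide and G protein signalling 4 rose and 4 fell, with a median of -0.11. RGS7, a regulator of G proteins, rose by 1.22.

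Some called genes lie next to each other in GRCh38. MAP2 and UNC80 are 37.9 kb apart on chromosome 2 and both rose, and COL4A5 and COL4A6 start 347 bases apart on the X chromosome and both rose. MUC6 and MUC2, 38.2 kb apart on chromosome 11, both rose. On chromosome 22 LINC01659 and PCAT14 are 101.8 kb apart and both fell. MYC and the non-coding gene PVT1 are 53.1 kb apart on chromosome 8 and both fell, PVT1 by 0.55 on the log2 scale, a call lost without 1 library. These pairs were noticed in the data, and how often called genes are neighbours was not tested.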
